A study of Mus musculus with 6 samples.

Results

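Glutathione and antioxidant enzyme genes were followed in fully-grown germinal vesicle (GV) oocytes of Rtcb knock-out (Rtcb KO) and wild-type (WT) mice. The members were all rows of the gene table with symbols of the cytosolic and microsomal glutathione S-transferases, glutathione peroxidases, peroxiredoxins, superoxide dismutases, thioredoxin reductases and glutaredoxins, together with 12 named genes of glutathione synthesis, thioredoxin, catalase, NRF2 signalling and Pyroxd1. This gave 62 of 23235 genes, picked by symbol, though with earlier results of these data known. RTCB is an RNA ligase; it seals tRNA exons after intron removal and rejoins cleaved Xbp1 mRNA. Both groups are of the C57BL/6 strain and were taken after 44 to 48 hours of PMSG, a gonadotropin that drives follicle growth. All titles also carry 6W, which the labels do not explain. Each group has 3 libraries of 10 pooled oocytes. The label of the mutant is Rtcb knock-out; the sources used here do not give the deleted part of the gene, the cells in which it was deleted or any Cre driver. Whether each library comes from its own animals is not labelled, and the p-values then cover the spread among libraries, technical or not.

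Glutathione is a tripeptide made by glutamate-cysteine ligase and glutathione synthetase, and it keeps cysteines of proteins reduced and removes peroxides. Glutathione peroxidases and peroxiredoxins reduce peroxides, superoxide dismutases make hydrogen peroxide from superoxide, and glutathione reductase and the thioredoxin reductases return the used electron carriers to the reduced state with NADPH. Oocytes store glutathione during growth and draw on it at fertilization, when the disulfides of sperm protamines are reduced. RTCB itself can be inactivated by oxidation, and in human cells the oxidoreductase PYROXD1 protects it.

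Levels are FPKM (fragments per kilobase of transcript and per fixed number of mapped fragments) that the authors scaled to ERCC spike-in RNA. All 3 KO columns carry 1 common factor and all 3 WT columns another, and the KO factor is 0.667 times the WT factor (−0.58 as a log2 value), a ratio that every KO to WT comparison as deposited carries. Fold changes are KO over WT on log2(FPKM + 1), which understates changes of low genes, and a gene is said to have risen or fallen where limma's Benjamini-Hochberg adjusted p over all 12029 tested genes is under 0.05. Each call was examined under 4 scalings: as deposited, with the genotype factors removed, with equal library totals, and by median ratios. Levels given below are as deposited unless stated. Fewer transcripts per oocyte and a lower share of the reads cannot be told apart in values scaled this way, nor can fewer oocytes holding a transcript and less of it per oocyte in pooled cells. Rtcb, listed as D10Wsu52e, was at 3.82, 2.62 and 2.49 FPKM in KO and at 136, 133 and 113 FPKM in WT. Summed FPKM ranged from 943926 to 999507 in KO and from 1267730 to 1347014 in WT. All 12 oocyte markers examined were above 1 FPKM in some library. Of 20 granulosa and cumulus markers, summed to between 50.4 and 65.4 FPKM in KO and between 63.4 and 70.03 FPKM in WT, 1 (Ptx3) was at 0 in every library and 9 reached 1 FPKM in some library. Of these, Cyp19a1 was at 22.2, 19.6 and 17.5 FPKM in KO and 35.6, 39.8 and 37.2 FPKM in WT, and Nr5a2 at 14.5, 12.3 and 13.5 FPKM in KO and 7.57, 9.43 and 11.3 FPKM in WT. Inha was at 6.08, 8.12 and 17.8 FPKM in KO and at no more than 8.36 FPKM in WT. Inha, Hsd17b1 (4.13 FPKM) and Gja1 (3.47 FPKM) were highest in KO 3. Cyp19a1, Nr5a2, Inhba, Kitl, Cyp11a1 and Runx2 were highest in other libraries, and Cyp19a1 was lowest in KO 3. Of 8 blood and immune markers, Hbb-b1 and Hba-a1 were at 0, Cd68 was at 2.16, 3.02 and 0.879 FPKM in KO and 2.88, 4.69 and 3.82 FPKM in WT, and Lyz2 reached 5.46 FPKM in KO 2 (list sums 1.03 to 8.90 FPKM in KO and 2.94 to 5.22 FPKM in WT), and of 9 stromal and endothelial markers Lum, Acta2 and Cdh5 were at 0 (16.8 to 20.05 FPKM in KO and 31.1 to 48.2 FPKM in WT, nearly all of it Pecam1). The part of such cells in the results was not tested.

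Of the 62 members, 44 had a mean of at least 1 FPKM and were tested, and 18 were not tested, 4 of which (Gpx2, Gpx2-ps1, Gstm3 and Mgst2) were at 0 in every library. As deposited, 4 tested members rose (9.09%, against 9.29% of all tested genes) and 25 fell (56.8%, against 54.0% of all tested genes), shares close to the background. The median log2 fold change was −0.37 over the members and −0.47 over all tested genes. Once the factors were taken out, the members that rose numbered 9 and those that fell 3 (20.5% and 6.82%, against 25.7% and 18.0% of all tested genes), and the medians were 0.19 and 0.043. With equal totals, 7 rose and 8 fell (15.9% and 18.2%, against 19.0% and 25.8% of all tested genes). Under every scaling 18 of the 44 members lay below the median of all genes. Under all 4 scalings alike, 4 members rose (Gpx1, Gsto2, Gstt2 and Gstt3; 9.09%, against 9.23% of all tested genes) and 3 fell (Gsr, Txnrd1 and Txnrd3; 6.82%, against 18.0%). Of all tested genes, 2161 fell with the factors removed, and all 2161 fell under all 4 scalings. Of the 1118 genes that rose as deposited, 1110 rose under all 4. Passing all 4 is thus nearly 1 criterion per direction, not 4 separate checks.

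**Figure D1:**
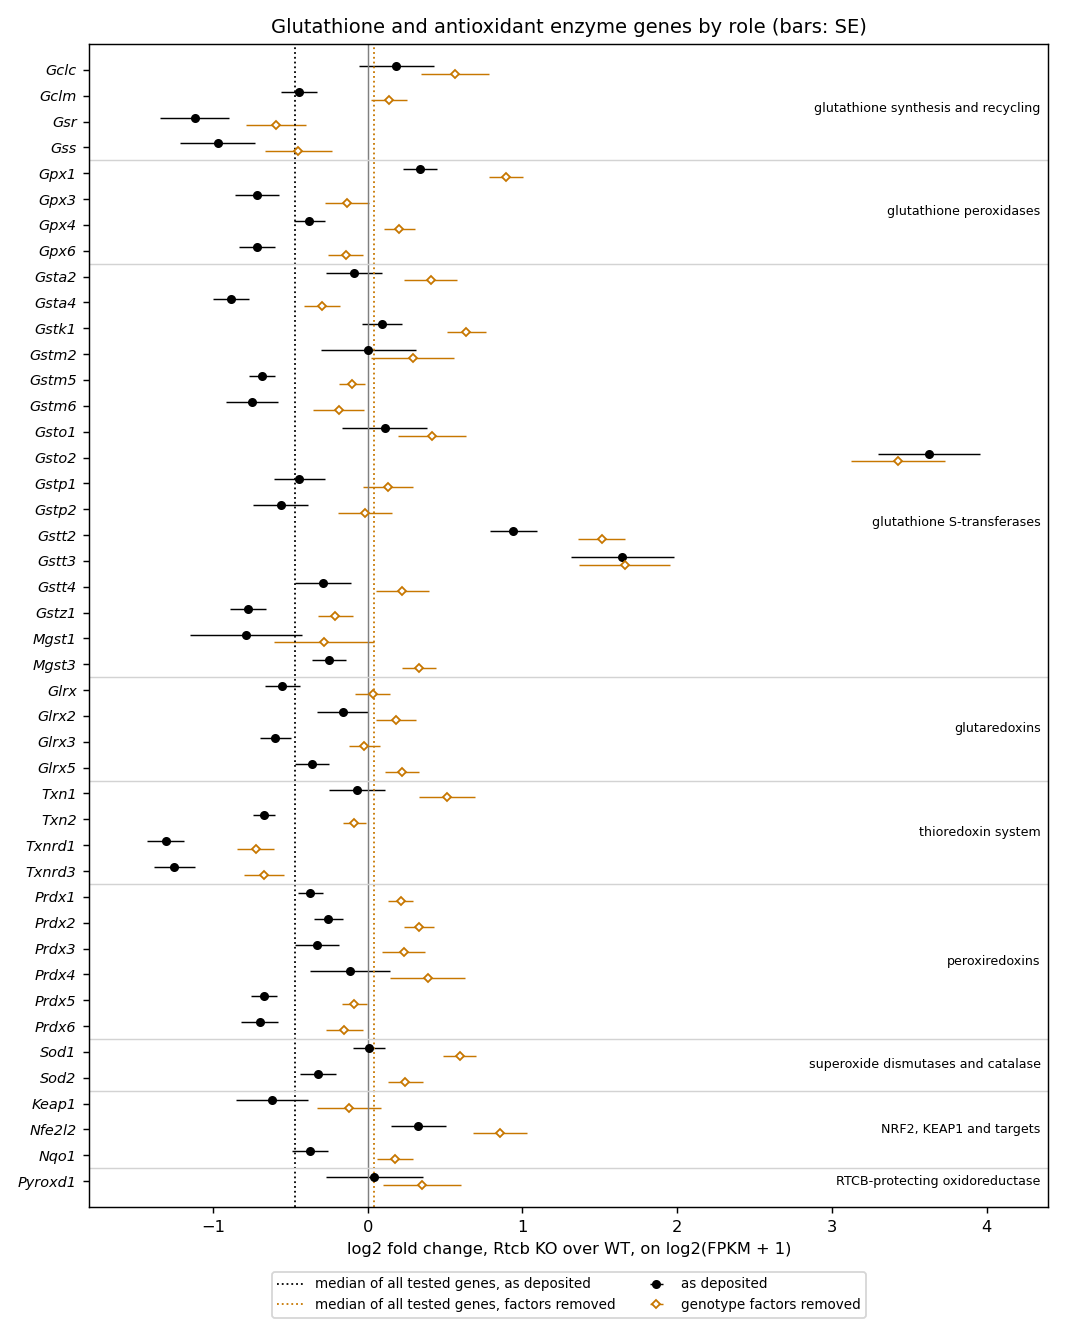
Log2 fold change (KO over WT, x axis, bars SE) of the 44 tested members by role (y axis), as deposited (black) and with the genotype factors removed (open, orange), 3 libraries per genotype; dotted lines are the medians of all tested genes. Gsto2 lies at 3.63 as deposited and 3.43 with the factors removed, and Gsr, Txnrd1 and Txnrd3 lie left of 0 under both.

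The 3 members that fell under every scaling are the reductases of glutathione and thioredoxin that were high enough to test. Txnrd1, the cytosolic thioredoxin reductase, was at 45.7, 42.1 and 43.8 FPKM in KO libraries and at 128, 108 and 95.7 FPKM in WT libraries. Txnrd3, a thioredoxin glutathione reductase best known from testis, was at 28.3, 26.6 and 27.7 FPKM in KO and 76.3, 71.1 and 55.3 FPKM in WT. Gsr, glutathione reductase, was at 2.43, 1.56 and 1.43 FPKM in KO and 6.20, 3.58 and 5.63 FPKM in WT. For all 3 genes every KO library lay below every WT library, and the KO libraries of the Txnrd genes lay within a narrow band. Txnrd1 fell to 43.9 ± 1.83 FPKM in KO, against 111 ± 16.5 FPKM in WT (SD, n = 3 each), which is 2.52-fold lower (log2 fold change −1.31, SE 0.121, limma adjusted p = 0.000172; −0.72 and 0.00301 with the factors removed). Txnrd3 was 2.45-fold lower (log2 fold change −1.25, SE 0.133, limma adjusted p = 0.000222; −0.67 and 0.00561 with the factors removed). Gsr, a low transcript, was 2.84-fold lower (log2 fold change −1.12, SE 0.225, limma adjusted p = 0.00313). With the factors removed Gsr was still lower (−0.59, limma adjusted p = 0.0388), but its KO and WT values then overlapped and the call was lost without KO 2, KO 3, WT 1 or WT 3 (adjusted p up to 0.127). The mitochondrial reductase Txnrd2 was too low to test, at 0.742, 0.536 and 1.30 FPKM in KO and 1.36, 0.917 and 0.864 FPKM in WT, and the groups overlapped.

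The 4 members that rose under every scaling are 3 glutathione S-transferases and 1 peroxidase. Gsto2, an omega-class transferase that also reduces dehydroascorbate, was at 11.4, 27.2 and 11.7 FPKM in KO libraries and at 0.669, 0.123 and 0.254 FPKM in WT libraries. Every WT library was under 1 FPKM and KO 2 was more than 2 times as high as the other KO libraries. Gsto2 and Gstt3 reached the minimum level for testing through KO only, with WT means under 1 FPKM. The log2 fold change was 3.63 (SE 0.330, limma adjusted p = 0.000166; 3.43 and 0.000802 with the factors removed). Its ratio of means, 48.1, rests on WT values near 0 and ranged from 33.1 without KO 2 to 88.97 without WT 1. Its paralog and neighbour in the genome, Gsto1, was at 2.06, 1.80 and 3.23 FPKM in KO and 2.95, 1.09 and 2.51 FPKM in WT, with overlapping groups (log2 fold change 0.11, limma adjusted p = 0.747).

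Gstt2, a theta-class transferase and the most abundant member that rose, was at 209, 138 and 197 FPKM in KO and at 93.3, 94.5 and 89.99 FPKM in WT. The WT libraries lay close together and all 3 KO libraries lay above them, KO 2 nearest. Gstt2 rose to 181 ± 37.8 FPKM in KO, against 92.6 ± 2.35 FPKM in WT, or 1.96-fold (log2 fold change 0.94, SE 0.152, limma adjusted p = 0.00110; 1.51 and 0.000848 with the factors removed). Gstt3, of the same class, was at 8.18, 2.73 and 3.65 FPKM in KO and 1.09, 0.779 and 0.400 FPKM in WT, with KO 1 well above the other KO libraries. Its ratio of means was 6.43 and ranged from 4.23 without KO 1 to 8.23 without WT 1 (log2 fold change 1.65, limma adjusted p = 0.00321; 1.66 and 0.00393 with the factors removed). Gstt4 did not pass the test, at 8.83, 9.87 and 6.52 FPKM in KO and 8.89, 10.6 and 11.8 FPKM in WT, and Gstt1 was under 1 FPKM in every library.

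Gpx1, the cytosolic glutathione peroxidase of hydrogen peroxide, was at 45.3, 40.3 and 50.2 FPKM in KO and 34.8, 34.3 and 37.4 FPKM in WT. The groups did not overlap, and KO was 1.28-fold higher (log2 fold change 0.34, SE 0.112, limma adjusted p = 0.0285). As deposited this call was lost without 4 of the 6 libraries (adjusted p up to 0.104, without KO 3). With the factors removed the change was larger (0.89, limma adjusted p = 0.00128) and passed without each library in turn.

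**Figure D2:**
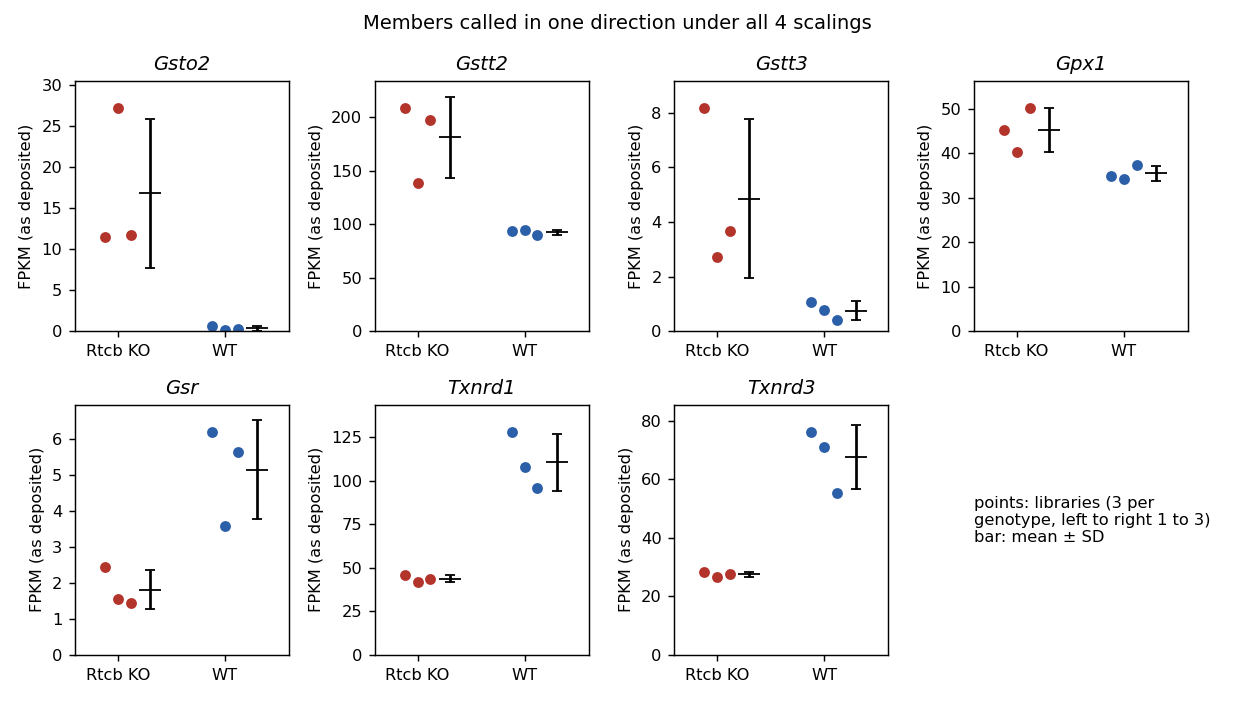
FPKM as deposited (y axis, from 0) of the 7 members that rose or fell under all 4 scalings, by library (points, 3 KO left and 3 WT right), with mean and SD. In every panel the 3 KO libraries lie to 1 side of the 3 WT libraries; Gsto2 is carried highest by KO 2 at 27.2 FPKM and Gstt3 by KO 1 at 8.18 FPKM.

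Promoter sequences are shown for those of these 7 genes that the RefSeq promoter table holds, and for Nfe2l2, because the antioxidant response element is the site through which NRF2 acts on many of the members. Each is 300 bases long, from 250 before to 50 after a transcript start, read 5′ to 3′ on the gene's strand from build GRCm38.p6, an assembly other than that of the expression values. The core of the element, TGACNNNGC, was searched on both strands, and matches are in capitals.
Gsto2 (chr19:47865295-47865594, plus strand): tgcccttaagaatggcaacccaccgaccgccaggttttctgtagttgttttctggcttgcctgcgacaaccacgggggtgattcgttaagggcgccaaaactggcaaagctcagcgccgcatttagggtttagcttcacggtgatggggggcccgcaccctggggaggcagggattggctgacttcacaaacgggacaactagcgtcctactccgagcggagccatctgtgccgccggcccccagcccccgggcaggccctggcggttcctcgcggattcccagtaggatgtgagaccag
Gstt3 (chr10:75781365-75781664, minus strand): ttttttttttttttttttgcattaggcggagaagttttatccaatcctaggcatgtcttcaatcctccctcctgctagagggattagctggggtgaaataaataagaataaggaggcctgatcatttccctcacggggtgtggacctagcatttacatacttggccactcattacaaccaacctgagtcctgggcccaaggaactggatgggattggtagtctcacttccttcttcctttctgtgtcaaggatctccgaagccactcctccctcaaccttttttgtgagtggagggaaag
Gpx1 (chr9:108338830-108339129, plus strand): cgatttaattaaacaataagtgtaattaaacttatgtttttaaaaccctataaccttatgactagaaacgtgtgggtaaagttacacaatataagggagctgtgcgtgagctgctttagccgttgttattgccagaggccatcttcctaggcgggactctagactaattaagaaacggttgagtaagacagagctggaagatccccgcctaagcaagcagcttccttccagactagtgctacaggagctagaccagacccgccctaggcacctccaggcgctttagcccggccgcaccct
Txnrd1 (chr10:82858956-82859255, plus strand): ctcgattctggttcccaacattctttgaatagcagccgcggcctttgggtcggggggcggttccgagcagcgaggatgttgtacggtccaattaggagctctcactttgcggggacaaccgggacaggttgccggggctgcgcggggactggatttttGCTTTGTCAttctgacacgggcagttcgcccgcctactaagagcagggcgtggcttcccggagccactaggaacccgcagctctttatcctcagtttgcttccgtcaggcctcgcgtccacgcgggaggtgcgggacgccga
Txnrd3 (chr6:89643738-89644037, plus strand): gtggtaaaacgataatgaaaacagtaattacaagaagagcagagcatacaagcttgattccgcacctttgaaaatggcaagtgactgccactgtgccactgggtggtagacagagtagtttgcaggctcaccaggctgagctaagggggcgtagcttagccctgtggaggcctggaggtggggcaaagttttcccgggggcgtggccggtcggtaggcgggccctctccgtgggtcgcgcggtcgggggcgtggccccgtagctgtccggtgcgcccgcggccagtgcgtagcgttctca
Nfe2l2 (chr2:75704614-75704913, minus strand): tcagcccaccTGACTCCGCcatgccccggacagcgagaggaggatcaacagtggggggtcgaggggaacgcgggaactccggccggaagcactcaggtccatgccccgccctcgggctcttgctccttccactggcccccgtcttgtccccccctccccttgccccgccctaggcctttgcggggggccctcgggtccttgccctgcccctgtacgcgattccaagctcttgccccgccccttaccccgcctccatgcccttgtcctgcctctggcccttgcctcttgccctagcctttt
Gstt2 and Gsr have no entry in the table. Where a gene has several windows, the first with a match is shown, or the first of all. Of 3 windows of Txnrd1, which fell, the shown one holds a match, on the reverse strand, and the others none, while the window of Nfe2l2 holds 1 on the forward strand. The windows of Gsto2, Gstt3, Gpx1 and Txnrd3 hold none, nor do the other windows listed for Gsto2 and Gstt3. Over all 53 members with an entry, 9 of 71 windows hold a match (12.7%), against 4071 of 32851 windows of all genes (12.4%). The other members with a match are Gclm, Gsta3, Gstm5, Gstm7, Mgst1, Prdx1 and Sod1. The match in the Prdx1 window reads TGACTCAGC on the reverse strand, and Prdx1 fell as deposited only. A match describes these letters and does not show that a factor binds there. An absence holds only for these windows: sites more than 250 bases before a start were not searched, and 9 members have no entry. The shown windows of Gsto2, Txnrd1 and Txnrd3 have 20, 27 and 21 CpG pairs, against 3 for Gstt3, 11 for Gpx1 and a median of 7 over all windows.

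In glutathione synthesis, the catalytic subunit gene Gclc of glutamate-cysteine ligase was low, at 5.87, 3.39 and 2.85 FPKM in KO and 2.90, 2.90 and 4.19 FPKM in WT, with overlapping groups (log2 fold change 0.19, limma adjusted p = 0.523). With the factors removed every KO library of Gclc lay above every WT library, without passing (0.56, limma adjusted p = 0.0692). Gclm, the modifier subunit, was far higher, at 85.1, 74.00 and 91.01 FPKM in KO and 121, 119.8 and 100.3 FPKM in WT. Every KO library was below every WT library for Gclm, which fell as deposited (log2 fold change −0.44, limma adjusted p = 0.0114) and was positive with the factors removed (0.13, adjusted p = 0.373). Gss, glutathione synthetase, was at 2.58, 1.59 and 3.69 FPKM in KO and 5.79, 7.23 and 4.85 FPKM in WT. It fell 2.27-fold (log2 fold change −0.97, limma adjusted p = 0.00871) and missed the threshold with the factors removed (−0.45, adjusted p = 0.127). Other genes overlap exons of Gss on the opposite strand and exons of Gclm on both strands. Of the 75-base words of their transcripts, 3.2% for Gss and 0.0% for Gclm lie in other genes. Reads of such shared stretches cannot be told apart without a stated strand.

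Of 4 tested glutathione peroxidases, Gpx1 rose and 3 fell as deposited, beside 9.29% and 54.0% of all tested genes. None of these 3 passed with the factors removed. Gpx4, which reduces lipid hydroperoxides in membranes, was the most abundant, at 196, 221 and 232 FPKM in KO and 262, 278 and 304 FPKM in WT (log2 fold change −0.38, limma adjusted p = 0.0111; 0.20 with the factors removed). An annotated pseudogene, Gpx4-ps2, holds 55.3% of the 75-base words of the Gpx4 transcript, so its value is uncertain. Gpx3, the secreted peroxidase, was at 98.9, 76.6 and 88.7 FPKM in KO and 154, 162 and 121 FPKM in WT (−0.72, limma adjusted p = 0.00292; −0.14 with the factors removed). Gpx6 was at 30.1, 37.1 and 35.7 FPKM in KO and 60.99, 57.4 and 52.4 FPKM in WT (−0.72, limma adjusted p = 0.00111; −0.14 with the factors removed). Gpx1 was thus the peroxidase that was higher in KO while Gpx3, Gpx4 and Gpx6 were lower as deposited. Gpx5 and Gpx8 were near 0, and Gpx7 had a mean under 1 FPKM.

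Of 16 tested glutathione S-transferases, 3 rose, as given above, and 6 fell as deposited, beside 9.29% and 54.0% of all tested genes. None of these 6 fell with the factors removed. Gsta4, which conjugates the lipid peroxidation product hydroxynonenal, was at 164, 193 and 146 FPKM in KO and 293, 299 and 331 FPKM in WT, and the groups remained apart with the factors removed. It fell 1.84-fold (log2 fold change −0.88, limma adjusted p = 0.000454), a call that held with equal totals (adjusted p = 0.0113) and median ratios (0.0420) and missed the threshold with the factors removed (0.0693). Gstm5, the most abundant mu-class gene, was at 245, 263 and 231 FPKM in KO and 381, 401 and 406 FPKM in WT (log2 fold change −0.68, limma adjusted p = 0.000346; 0.0300 with equal totals and 0.357 with the factors removed). Gstz1, an enzyme of tyrosine breakdown, was at 15.6, 15.1 and 15.1 FPKM in KO and 23.9, 27.9 and 28.9 FPKM in WT (−0.77, limma adjusted p = 0.000787; 0.0362 with equal totals and 0.170 with the factors removed). Its groups also remained apart with the factors removed. Gstm6 was at 13.5, 16.7 and 13.9 FPKM in KO and 23.8, 21.2 and 31.9 FPKM in WT and fell as deposited (−0.75, limma adjusted p = 0.00540).

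The pi-class genes Gstp1 and Gstp2 are near copies, with 57.7% of the 75-base words of the Gstp1 transcript also in Gstp2, so how their reads were shared is uncertain. Gstp1 was at 49.95, 52.1 and 38.9 FPKM in KO and 65.99, 51.99 and 75.5 FPKM in WT. Gstp2 was at 12.95, 8.32 and 9.67 FPKM in KO and 17.8, 13.8 and 15.1 FPKM in WT. Both fell as deposited (limma adjusted p = 0.0457 and 0.0250), both lost the call when any of 4 libraries was left out (highest adjusted p 0.153 for Gstp1, omitting KO 3, and 0.0842 for Gstp2, omitting WT 1), and Gstp1 groups overlapped.

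Gstk1, a transferase of mitochondria and peroxisomes, was at 27.5, 21.8 and 24.2 FPKM in KO and 20.7, 24.9 and 23.02 FPKM in WT. It did not pass as deposited (log2 fold change 0.094, limma adjusted p = 0.544) and was higher in KO with the factors removed (0.64, adjusted p = 0.00595) and with equal totals (adjusted p = 0.0197). Mgst3, a membrane-bound member, was the most abundant transferase, at 605, 726 and 666 FPKM in KO and 705, 819 and 856 FPKM in WT. Its groups overlapped as deposited (limma adjusted p = 0.0736), and with the factors removed it was higher in KO (0.33, adjusted p = 0.0391), a call lost on omitting any of 4 libraries (at most 0.108, omitting KO 3). Mgst1, Gsta2 and Gstm2 did not pass under any of the 4 scalings. Other genes hold 46.9% of the 75-base words of the Gsta2 transcript, so its value is uncertain. Among untested transferases, Gstm1 was at 1.52, 0.836 and 1.86 FPKM in KO and 0.462, 0.477 and 0 FPKM in WT, and Gstm7 at 0.430, 0.460 and 0.321 FPKM in KO and 1.10, 1.30 and 0.607 FPKM in WT, each without overlap as deposited; they are named here after their values were seen.

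Glutaredoxins, which reduce protein-glutathione disulfides and carry iron-sulfur clusters, include some of the most abundant members. Glrx, the cytosolic enzyme, was at 1118, 1345 and 1042 FPKM in KO and 1805, 1607 and 1712 FPKM in WT (log2 fold change −0.55, limma adjusted p = 0.00336). Glrx5, of mitochondrial iron-sulfur cluster assembly, was at 781, 879 and 953 FPKM in KO and 998, 1173 and 1184 FPKM in WT (−0.36, limma adjusted p = 0.0209). Glrx3, of cytosolic iron-sulfur assembly, was at 51.9, 47.4 and 54.1 FPKM in KO and 76.5, 84.1 and 73.2 FPKM in WT (−0.60, limma adjusted p = 0.00128). These 3 of 4 tested glutaredoxins fell as deposited, beside 54.0% of all tested genes. Their KO libraries lay wholly below WT, as for 24 of the 44 tested members. The share of all tested genes lying wholly below WT was not computed, so this count has no background. None of the 3 glutaredoxins passed with the factors removed, where their log2 fold changes were 0.031, 0.22 and −0.022. The Glrx5 call was also lost without 3 of the 6 libraries (adjusted p up to 0.0855, without KO 1). Glrx2, the mitochondrial glutaredoxin, was near 2 FPKM in both genotypes and did not pass.

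Of the thioredoxins themselves, Txn2 fell as deposited and Txn1 did not pass. Txn1, the cytosolic thioredoxin, was at 181, 233 and 199 FPKM in KO and 177, 193 and 283 FPKM in WT, with overlapping groups (log2 fold change −0.069, limma adjusted p = 0.755; 0.51 and 0.05003 with the factors removed, just short of the threshold). Txn2, the mitochondrial thioredoxin, was at 239, 244 and 249 FPKM in KO and 388, 386 and 394 FPKM in WT. It fell as deposited (log2 fold change −0.67, limma adjusted p = 0.000244) and with equal totals (adjusted p = 0.0302), and missed the threshold with the factors removed (−0.088, adjusted p = 0.358). Every KO library of Txn2 still lay below every WT library with the factors removed.

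Among peroxiredoxins, the thiol peroxidases that take electrons from thioredoxin or glutathione, 4 of 6 tested members fell as deposited, against 54.0% of all tested genes. Prdx2, a cytosolic enzyme, was at 1553, 1746 and 1659 FPKM in KO and 1833, 1943 and 2148 FPKM in WT, and Prdx1, its close relative, at 1224, 1278 and 1289 FPKM in KO and 1574, 1683 and 1649 FPKM in WT. Their KO values were all below their WT values as deposited (limma adjusted p = 0.0457 and 0.00409) and all above them with the factors removed, where Prdx2 was higher in KO (log2 fold change 0.33, adjusted p = 0.0266, lost on omitting any of 5 libraries, at most 0.0926) and Prdx1 missed the threshold (0.21, 0.0615). The direction of both genes thus depends on the scaling. The Prdx2 call as deposited did not survive the omission of any of 4 libraries (highest adjusted p 0.167, omitting KO 1), and Prdx2 exons overlap those of Junb and Rnaseh2a on the opposite strand. Prdx5, of mitochondria and peroxisomes, was at 158, 163 and 154 FPKM in KO and 250.2, 242 and 268 FPKM in WT (log2 fold change −0.67, limma adjusted p = 0.000332; 0.0388 with equal totals and 0.397 with the factors removed), and 28.2% of the 75-base words of its transcript lie in Trmt112 on the opposite strand. Prdx6, which uses glutathione, was at 10.4, 8.75 and 9.46 FPKM in KO and 15.5, 16.1 and 16.6 FPKM in WT (−0.70, limma adjusted p = 0.00154; 0.322 with the factors removed). The mitochondrial Prdx3 and the endoplasmic reticulum enzyme Prdx4 did not pass under any of the 4 scalings.

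Sod1, the copper-zinc superoxide dismutase of the cytosol, was the most abundant member in all 6 libraries, at 5122, 6288 and 5613 FPKM in KO and 5926, 5385 and 5571 FPKM in WT. The groups overlapped as deposited (log2 fold change 0.0081, limma adjusted p = 0.952). With the factors removed every KO library lay above every WT library and Sod1 was higher in KO (0.59, adjusted p = 0.00437), as it was with equal totals (adjusted p = 0.00624) and median ratios (0.00807). Sod2, the manganese enzyme of mitochondria, was at 29.7, 30.05 and 28.7 FPKM in KO and 32.6, 37.5 and 41.5 FPKM in WT. It fell as deposited (log2 fold change −0.32, limma adjusted p = 0.0396), a call that was lost on omitting any of 5 libraries (highest adjusted p 0.107, omitting WT 3). With the factors removed its log2 fold change was positive (0.24, limma adjusted p = 0.118), and every KO library lay above every WT library. A further gene model, Gm8566, holds 12.2% of the 75-base words of the Sod1 transcript. Catalase (Cat) was scarcely detected, at 0.504, 0.518 and 1.20 FPKM in KO and 0.472, 1.55 and 0.513 FPKM in WT, and Sod3, the extracellular enzyme, was listed at 0 in 5 of 6 libraries.

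Nfe2l2, which encodes NRF2, the transcription factor of the oxidative stress response, was at 24.1, 21.8 and 19.3 FPKM in KO and 19.96, 19.2 and 12.9 FPKM in WT. The groups overlapped as deposited (log2 fold change 0.33, limma adjusted p = 0.141), and with the factors removed every KO library lay above every WT library (0.85, adjusted p = 0.00626). Nfe2l2 also passed with equal totals (adjusted p = 0.0176) and median ratios (0.00791). Keap1, the adaptor that targets NRF2 for degradation, was at 2.81, 4.30 and 4.62 FPKM in KO and 8.75, 6.04 and 4.99 FPKM in WT. Keap1 fell as deposited (log2 fold change −0.62, limma adjusted p = 0.0450), a call that was lost on omitting any of 5 libraries (highest adjusted p 0.145, omitting KO 1) and with the factors removed (−0.12, 0.659). Of the classical NRF2 targets, Nqo1, a quinone reductase, was at 16.1, 15.9 and 14.7 FPKM in KO and 21.2, 18.5 and 21.6 FPKM in WT and fell as deposited (−0.37, limma adjusted p = 0.0232) but not with the factors removed (0.18, 0.242). The Nqo1 call as deposited was lost without 4 libraries (up to 0.0801, without KO 3). With the factors removed every KO library of Nqo1 lay above every WT library. Hmox1, heme oxygenase, was too low to test, at 0.575, 1.03 and 0.580 FPKM in KO and 1.17, 1.52 and 0.487 FPKM in WT.

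Pyroxd1, the gene of the oxidoreductase that protects RTCB in human cells, was at 3.19, 1.45 and 1.95 FPKM in KO and 2.43, 3.13 and 0.959 FPKM in WT. The groups overlapped and no difference was detectable at this level (log2 fold change 0.043, SE 0.313, limma adjusted p = 0.913). Its exons overlap those of Recql on the opposite strand, which holds 43.5% of the 75-base words of the Pyroxd1 transcript.

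In order of level, the members are led by Sod1, followed in every library by Prdx2 and then by Prdx1, Glrx and Glrx5. Mean levels of Prdx1 and Glrx were 1264 ± 35.02 and 1169 ± 158 FPKM in KO and 1635 ± 55.6 and 1708 ± 98.8 FPKM in WT (SD, n = 3 each), within their spread, and their order differs between libraries. These 5 genes made up 78.5%, 80.3% and 79.4% of the summed FPKM of all members in KO and 77.3%, 76.2% and 76.1% in WT. All members together made up 1.32%, 1.44% and 1.37% of the summed FPKM of the KO libraries and 1.24%, 1.17% and 1.20% of that of the WT libraries, a share that no factor per library can change. Sod1 alone held 41.0%, 43.8% and 42.2% of the members' sum in KO and 37.8%, 34.8% and 34.6% in WT. In both measures the KO libraries lie above the WT libraries.

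**Figure D3:**
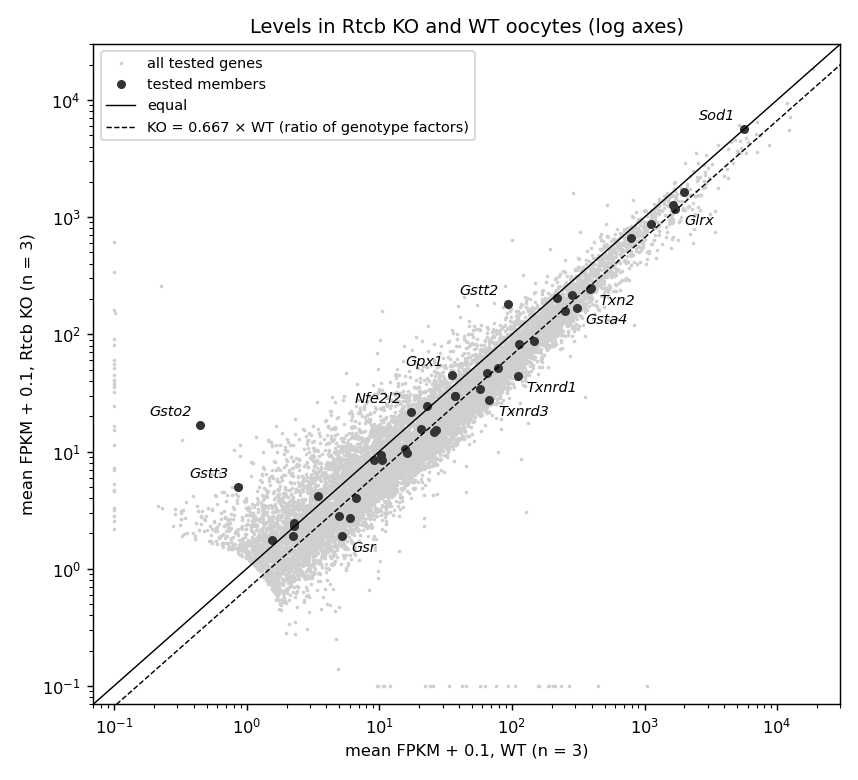
Mean FPKM + 0.1 in KO (y axis) against WT (x axis), both log scaled, n = 3 libraries each, for the tested members (black) and all tested genes (grey); the solid line is equality and the dashed line the ratio of the genotype factors, 0.667. Most members lie near the dashed line, Sod1 lies on the solid line, Gsto2, Gstt3, Gstt2 and Gpx1 lie above it, and Gsr, Txnrd1 and Txnrd3 lie below the dashed line.

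Ratios of 2 members within a library are free of a factor per library, apart from the pseudocount of 1. Of 6 such ratios, chosen with earlier results of these data known, 4 did not overlap between genotypes. The share of other gene pairs without overlap was not computed, so this count has no background. Each of the 4 has p = 0.1 in an exact permutation test (two-sided), the smallest that 3 against 3 can give. The adjusted p of that test is 0.15 over the 6 ratios, and none could have passed 0.05. The log2 ratio of Gsto2 to Gsto1 was 2.02, 3.33 and 1.58 in KO and −1.24, −0.89 and −1.49 in WT, a difference of 3.52. Gsto2 was thus the more abundant omega-class transcript in all KO libraries and Gsto1 in all WT libraries. The log2 ratio of Nfe2l2 to Keap1 was 2.72, 2.11 and 1.85 in KO and 1.10, 1.52 and 1.22 in WT, 0.95 higher in KO. The log2 ratio of the mitochondrial Txn2 to the cytosolic Txn1 was 0.40, 0.066 and 0.33 in KO and 1.13, 0.99 and 0.48 in WT, a difference of −0.60. The log2 ratio of Txnrd2 to Txnrd1 was −4.75, −4.81 and −4.28 in KO and −5.78, −5.83 and −5.70 in WT, a difference of 1.15 that rests on Txnrd1, since Txnrd2 is near the pseudocount. The ratios of Gclm to Gclc and of Sod2 to Sod1 overlapped (differences −0.63 and −0.33; p = 0.2, exact permutation test).

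**Figure D4:**
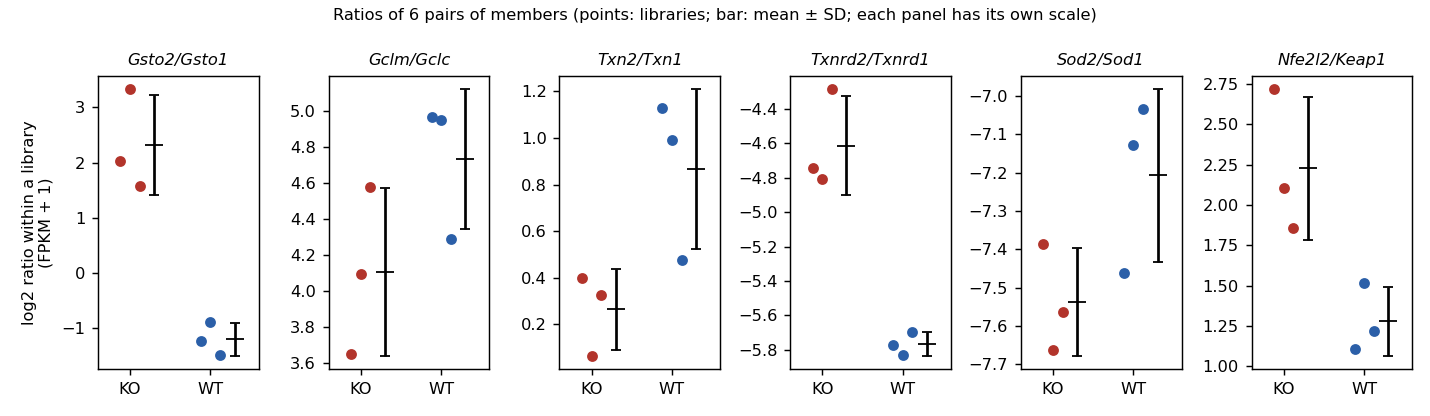
Log2 ratio of 2 members within each library (y axis, own scale per panel; points, 3 KO left and 3 WT right, with mean and SD) for 6 pairs. KO and WT do not overlap for Gsto2/Gsto1, Txn2/Txn1, Txnrd2/Txnrd1 and Nfe2l2/Keap1.

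Selenoproteins carry selenocysteine, inserted by a dedicated tRNA and elongation factor. GENCODE annotates a selenocysteine in 7 members, 5 of which were tested. Of these, Txnrd1 and Txnrd3 fell and Gpx1 rose under all 4 scalings, while Gpx3 and Gpx4 fell as deposited. Of 13 further tested genes of selenoprotein synthesis or other selenoproteins, 2 rose and 8 fell as deposited, against 4 and 2 once the factors were taken out (all tested genes, 9.29% and 54.0% as deposited, 25.7% and 18.0% with factors out). Their median log2 fold change was −0.58 as deposited. Sephs2, which makes the selenium donor, was at 109, 126 and 112 FPKM in KO and 295, 357 and 237 FPKM in WT (log2 fold change −1.33, limma adjusted p = 0.000248). Eefsec, the elongation factor of selenocysteine, was at 21.99, 21.6 and 17.7 FPKM in KO and 68.5, 57.7 and 51.9 FPKM in WT (−1.49, limma adjusted p = 0.000172). Both fell under all 4 scalings. Sephs1, the paralog of Sephs2, rose to 7.19 ± 2.69 FPKM in KO, against 2.09 ± 0.428 FPKM in WT, and Pstk, the kinase that acts on the charged tRNA, rose to 88.9 ± 4.12 FPKM in KO, against 62.1 ± 6.55 FPKM in WT (limma adjusted p = 0.00211 and 0.00332), also under all 4 scalings.

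NADPH feeds the reductases described above. Of 16 tested genes of NADPH supply, 1 rose and 9 fell as deposited, 4 rose and 7 fell with the factors removed, and 3 rose and 8 fell with equal totals, with a median of −0.74 as deposited. The shares over all tested genes were 9.29% and 54.0%, 25.7% and 18.0%, and 19.0% and 25.8% under these scalings. Pgd, the phosphogluconate dehydrogenase of the pentose phosphate pathway, was the one that rose, at 28.1, 20.3 and 30.1 FPKM in KO and 12.8, 14.3 and 13.1 FPKM in WT (log2 fold change 0.90, limma adjusted p = 0.00179). Rpe, of the same pathway, fell to 28.1 ± 0.691 FPKM in KO, against 76.8 ± 9.56 FPKM in WT (−1.41, limma adjusted p = 0.000162). Mthfd1, of folate metabolism, fell to 21.7 ± 1.13 FPKM in KO, against 67.7 ± 11.6 FPKM in WT (−1.59, limma adjusted p = 0.000162). All 3 calls held under the 4 scalings.

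Of 18 tested genes of glutathione turnover and transport, 1 rose and 10 fell as deposited (3 and 4 with the factors removed; median −0.46 as deposited). Over all tested genes 9.29% rose and 54.0% fell as deposited, and 25.7% and 18.0% with the factors removed, so the falls are close to the background. Slc7a11, the cystine transporter that supplies cysteine for glutathione, was at 20.3, 22.8 and 18.2 FPKM in KO and 44.8, 49.5 and 55.5 FPKM in WT. Chac1, which degrades glutathione, was at 26.3, 14.4 and 22.7 FPKM in KO and 7.15, 7.62 and 6.46 FPKM in WT. The KO libraries were all lower for Slc7a11 and all higher for Chac1, and both calls held under the 4 scalings (factors taken out, −0.67 and 1.85 in log2 fold change, limma adjusted p = 0.00484 and 0.00105). Abcc4, an export pump of organic anions, fell to 7.65 ± 0.492 FPKM in KO, against 26.9 ± 4.93 FPKM in WT (log2 fold change −1.68, limma adjusted p = 0.000173), under all 4 scalings.

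Of 18 tested genes with thioredoxin folds or in the repair of oxidized proteins, 3 rose and 12 fell as deposited (4 and 4 with the factors removed; median −0.49 as deposited), beside 9.29% and 54.0% of all tested genes (25.7% and 18.0%). Msra and Msrb3 reduce oxidized methionine. Msra was at 10.7, 12.7 and 10.99 FPKM in KO and 41.7, 37.4 and 35.6 FPKM in WT (log2 fold change −1.65, limma adjusted p = 0.000162), and Msrb3 at 4.75, 6.71 and 3.71 FPKM in KO and 15.7, 15.2 and 16.3 FPKM in WT (−1.50, limma adjusted p = 0.000380). Both fell under all 4 scalings. Sesn1, a stress-induced sestrin, rose to 4.77 ± 1.46 FPKM in KO, against 1.25 ± 0.232 FPKM in WT (limma adjusted p = 0.00102), under all 4 scalings. Ero1l, an oxidase of the endoplasmic reticulum, rose to 3.13 ± 1.25 FPKM in KO, against 1.13 ± 0.383 FPKM in WT (limma adjusted p = 0.0171; up to 0.0648 with a library left out).

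Of 22 tested NRF2 regulators and further targets, 3 rose and 8 fell as deposited, against 8 and 2 once the factors were taken out (medians −0.22 and 0.34). The shares of all tested genes are 9.29% and 54.0% as deposited and 25.7% and 18.0% without the factors. Ugdh, which makes UDP-glucuronate, was at 24.00, 6.56 and 19.1 FPKM in KO and 3.87, 3.37 and 1.91 FPKM in WT, with KO 2 nearest to WT (log2 fold change 1.98, limma adjusted p = 0.00443). Mafk, a small Maf partner of NRF2, was at 3.85, 1.78 and 4.62 FPKM in KO and 1.34, 1.88 and 0.408 FPKM in WT, with KO 2 within the WT range (limma adjusted p = 0.0324; up to 0.114 with a library left out). Btrc, of a ubiquitin ligase that can target NRF2, fell to 50.05 ± 1.45 FPKM in KO, against 109.6 ± 12.01 FPKM in WT (limma adjusted p = 0.000174), and Osgin1 fell to 23.8 ± 1.14 FPKM in KO, against 47.8 ± 6.94 FPKM in WT (limma adjusted p = 0.000459), both under all 4 scalings. The genes of all 5 lists named here are those with the largest rise and fall among the called ones.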

How the data were processed

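Polyadenylated RNA was measured in 3 Rtcb KO and 3 WT libraries of 10 oocytes each with Smart-seq2, whose full-length cDNA carries no strand mark, and ERCC spike-ins, per the labels' protocols. TopHat2 2.1.1 and Cufflinks 2.2.1 on mm9 are named in the submitters' processing notes; the sources used here name no annotation and no filter. The deposited table gives FPKM for each symbol, which the authors scaled to ERCC. Dividing by 4/3 (KO) or 2 (WT) returned 100.0% of values of at least 1 to 6-digit numbers (tolerance 0.01 of the last digit), which gives the genotype factors up to powers of 10; spike-in error between replicates is thus not in the spread. No read counts were used and depth is unknown.

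The 12029 genes averaging 1 FPKM or more went into limma 3.58.1 as log2(FPKM + 1) (R 4.3.3, lmFit, eBayes with trend), two-sided, adjusted p under 0.05 over all of them. This step was also tried on simulated data with few changed genes and no factor between genotypes, which does not test the scaling. Python 3.11.15 and scipy 1.17.1 were used for the rest. Members, lists, pairs and most alternatives were chosen with earlier results of these data known. Members called, members of the 6 pairs, Pyroxd1, Nfe2l2, Keap1, Cat and Hmox1 are given by library, and up to 2 called genes of largest rise and fall per list. Promoters are RefSeq's (GRCm38.p6, 53 of 62 members matched by symbol); gene overlap, selenocysteine and shared 75-base words come from GENCODE vM21, of the same assembly. Symbols alone link these reference features and gene order to the mm9 expression values.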

Additional observations from a re-analysis of the deposited data

How the results depend on the processing

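The numbers of genes higher and lower were 1118 and 6501 as deposited, 3097 and 2161 with the factors removed, 2283 and 3107 with equal totals and 2746 and 2606 with median ratios (490 higher at a mean of at least 10 FPKM). Members higher and lower were 4 and 25 as deposited, 9 and 3 with the factors removed, 7 and 8 with equal totals and 7 and 4 with median ratios (2 higher at a mean of at least 10 FPKM, where Gsto2 and Gstt3 were not tested). With the factors removed and single libraries left out they ranged from 7 to 11 and from 2 to 3. The members' median log2 fold change was −0.37, and 0.19, 0.056 and 0.14 in these 3 rescalings, −0.27 with no filter and −0.44 at a mean of at least 10 FPKM. Under all 4 scalings, with single libraries left out, 3 to 4 members were higher and 2 to 3 lower. The share of all tested genes was not computed for either of these settings with libraries left out, so these ranges have no background.

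The sign of the log2 fold change turned positive with the factors removed for Gclm (0.13), Glrx (0.031), Glrx2 (0.18), Glrx5 (0.22), Gpx4 (0.20), Gsta2 (0.41), Gstp1 (0.13), Gstt4 (0.22), Mgst3 (0.33), Nqo1 (0.18), Prdx1 (0.21), Prdx2 (0.33), Prdx3 (0.23), Prdx4 (0.39), Sod2 (0.24), Txn1 (0.51). With equal totals it turned positive for Glrx2 (0.12), Glrx5 (0.071), Gpx4 (0.052), Gsta2 (0.30), Gstt4 (0.10), Mgst3 (0.18), Nqo1 (0.037), Prdx1 (0.060), Prdx2 (0.18), Prdx3 (0.089), Prdx4 (0.27), Sod2 (0.10), Txn1 (0.36). With median ratios it turned positive for Gclm (0.065), Glrx2 (0.18), Glrx5 (0.15), Gpx4 (0.13), Gsta2 (0.37), Gstp1 (0.062), Gstt4 (0.17), Mgst3 (0.26), Nqo1 (0.11), Prdx1 (0.14), Prdx2 (0.26), Prdx3 (0.17), Prdx4 (0.35), Sod2 (0.18), Txn1 (0.44). With a pseudocount of 0.1 it turned negative for Gstm2 (−0.080). With single libraries left out, the log2 fold change of genes that did not pass as deposited ranged from −0.061 to 0.36 for Gclc, from −0.19 to 0.055 for Gsta2, from −0.37 to 0.27 for Gstm2, from −0.17 to 0.29 for Gsto1, from −0.33 to 0.10 for Prdx4, from −0.27 to 0.27 for Pyroxd1, from −0.068 to 0.079 for Sod1, from −0.20 to 0.13 for Txn1.

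The Gsto2 to Gsto1 difference was 5.12 with a pseudocount of 0.1 and 1.91 with 5, and the Txnrd2 to Txnrd1 difference was 0.82 with the factors removed. The replicate numbers do not pair the libraries by the labels, and the deviations of same-numbered libraries correlated at 0.14, −0.099 and 0.038. With the replicate block 4 members were higher and 23 lower, against 1108 and 6432 of all 12029 tested genes. Gstp1, Sod2 and Keap1 were lost and Mgst3 was gained. Without an intensity trend 22 members were lower, against 6456 of all tested genes. With no filter 5 members were higher and 23 lower, against 1161 and 6625 of all genes then tested. Gsto2, Gstt2, Gstt3, Txnrd1 and Txnrd3 passed without each library in turn, as deposited and with the factors removed. Of these, Gsto2 and Gstt3 were tested only because of their KO values, so their passing is not separate support. Depth is unknown, so members near or below 1 FPKM are the least certain.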

Other observations

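Genes next to the 7 members that rose or fell under all 4 scalings were looked at. Values of some next to Gsto2 and Gstt3, named after they were seen, are added here. Elsewhere Ppp2cb near Gsr rose and Usp4 next to Gpx1 fell as deposited (log2 fold change 1.67 and −1.09, limma adjusted p = 0.000750 and 0.000174). Both calls held with the factors removed (1.51 and −0.51, limma adjusted p = 0.00175 and 0.00606). Ubxn8, Gtf2e2 and Rbpms near Gsr, Plxna1 and Chchd6 near Txnrd3, and Derl3 near Gstt2 fell as deposited and did not pass with the factors removed. Chst11 near Txnrd1 fell under both. Rhoa next to Gpx1 and Nfyb near Txnrd1 did not pass as deposited (limma adjusted p = 0.229 and 0.441). Both were higher in KO with the factors removed (0.40 and 0.67, limma adjusted p = 0.0259 and 0.00479). Besides Gsto1, the genes of the table nearest to Gsto2 in RefSeq's order on GRCm38.p6 were Sfr1 and Itprip. Itprip was at 10.9, 10.3 and 11.1 FPKM in KO and 25.7, 20.6 and 15.7 FPKM in WT (log2 fold change −0.85, limma adjusted p = 0.00355; −0.30 and 0.189 with the factors removed), and Sfr1 at 1199.9, 1165 and 1207 FPKM in KO and 1615, 1793 and 1735 FPKM in WT (−0.52, limma adjusted p = 0.000920; 0.060 and 0.577 with the factors removed). Ddt, which encodes D-dopachrome tautomerase and lies next to Gstt3, was at 299.5, 336 and 307 FPKM in KO and 207, 204 and 273 FPKM in WT (0.47, limma adjusted p = 0.0117; 1.05 and 0.00114 with the factors removed), and Cabin1, on the same side, at 6.82, 7.82 and 7.76 FPKM in KO and 26.4, 21.3 and 26.4 FPKM in WT (−1.60, limma adjusted p = 0.000162; −1.01 and 0.00146 with the factors removed). A further gene model, Gm20441, shares exons with Gstt3 on the same strand and holds 25.0% of the 75-base words of its transcript, so Gstt3 values may include reads of it.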
